A study of Mus musculus with 4 samples.

Results

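The hedgehog genes described here are 9 genes named by symbol: the ligand genes Shh and Ihh, the receptor gene Ptch1, the signal transducer gene Smo, the transcription factor genes Gli1, Gli2 and Gli3, and the inhibitor genes Hhip and Sufu. All 9 were among the 25571 genes of the deposited table. The study sequenced RNA from mouse skin, with 1 library in each of 4 groups labelled PRP-MNs (platelet-rich plasma and microneedles), PRP (platelet-rich plasma), MNs (microneedles) and NC, a name the labels do not spell out and which served as the reference. Platelet-rich plasma is a platelet concentrate of blood, and a microneedle patch pierces the outer skin with many small needles. The series title concerns hair regrowth, but strain, age, sex, dose, time of harvest and hair cycle stage, and the number of animals behind a library, are not in the labels. The set was chosen by the name of each gene and by the measured FPKM of Shh, which was seen to be high in PRP-MNs, so the Shh levels are a description. No group had replicates, so no p-value and no error between animals can be given, and every difference below is between 2 libraries.

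Hedgehog proteins are secreted ligands that bind Patched receptors. An unbound Patched receptor holds Smoothened inactive, and ligand binding releases it, which lets Gli transcription factors act in the nucleus. Gli1, Ptch1 and Hhip are themselves induced by the pathway in many tissues, so their transcripts are widely read as its output. In skin, Shh from the epithelium of the growing hair follicle acts on the follicle epithelium and on the dermal papilla and is needed for the growth phase of the hair cycle.

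Values are FPKM, fragments scaled to transcript length and to the number of mapped fragments. Steps between low values of genes with 1 annotated transcript put the depth at 15.9 M fragments (PRP) to 19.3 M fragments (NC). A value is called detected here when it lies above that of 3 fragments, and limits and intervals made from fragments cover counting error only. The basal keratin gene Krt14 lay between 2055 and 3966 FPKM, as skin has, and Acta1, the actin gene of skeletal muscle, between 2873 and 4958 FPKM. Of 14 genes that every cell uses, none was listed at 0 in any library.

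Promoter sequence was looked up because several members were highest in the same library and because Gli factors bind the consensus GACCACCCA. The RefSeq promoter table (GRCm38.p6) held 7 of the 9 members, all but Shh and Gli1. In the 250 bases before the start, on both strands, the consensus was in none of the 7, and in 0.225% of all 32851 such windows. Its inner part ACCACCC, which every consensus match contains, was in the Gli2 window and in 3.92% of all windows. The windows of Gli2 (chr1:119053620-119053869, minus strand) and of the target genes Ptch1 (chr13:63565736-63565985, minus strand) and Hhip (chr8:80058009-80058258, minus strand) are shown 5′ to 3′ on the strand of the gene, with capitals for the match, which reads as the reverse complement GGGTGGT and begins at position −205 from the start of Gli2.
Gli2: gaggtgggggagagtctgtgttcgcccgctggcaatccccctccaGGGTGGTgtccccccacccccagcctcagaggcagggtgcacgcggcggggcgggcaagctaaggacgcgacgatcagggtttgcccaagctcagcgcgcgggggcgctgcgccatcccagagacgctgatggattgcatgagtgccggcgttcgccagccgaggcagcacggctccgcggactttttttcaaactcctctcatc
Ptch1: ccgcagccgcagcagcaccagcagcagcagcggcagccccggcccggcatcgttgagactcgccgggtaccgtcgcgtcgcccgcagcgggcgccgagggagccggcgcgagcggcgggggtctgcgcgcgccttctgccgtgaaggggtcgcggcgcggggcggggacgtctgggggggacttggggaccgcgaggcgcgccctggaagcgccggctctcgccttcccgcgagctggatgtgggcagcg
Hhip: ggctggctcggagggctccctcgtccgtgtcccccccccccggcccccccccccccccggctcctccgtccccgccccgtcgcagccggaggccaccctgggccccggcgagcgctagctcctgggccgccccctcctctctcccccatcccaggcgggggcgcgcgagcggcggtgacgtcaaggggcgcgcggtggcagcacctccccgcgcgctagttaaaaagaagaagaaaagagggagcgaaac
The windows of all 3 genes were rich in G and C, at 67.2% in Gli2, 78.4% in Ptch1 and 76.0% in Hhip, against a median of 52.4% over all windows. The RefSeq start of Ptch1 lies inside the span of the gene given further on, which comes from GENCODE and includes longer transcripts. Ptch1 held 41 CpG sites, where the median window held 6. A match is a run of letters and not a measured binding site, and no match says only that these letters are not in this window.

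Shh, which encodes Sonic hedgehog, was detected in PRP-MNs and MNs. It stood at 2.28 FPKM in PRP-MNs against 0.131 in MNs, while PRP and NC listed it at 0. On its single annotated transcript of 2847 bases these values correspond to about 112 fragments in PRP-MNs (95% Poisson interval 92.2 to 135) and about 7 in MNs (2.81 to 14.4). A listing at 0 was given the value of 3 fragments as its limit, 0.0663 FPKM in PRP and 0.0546 FPKM in NC. The upper end of the 95% Poisson interval of a count of 0 is a little higher, at 3.69 fragments. PRP-MNs was thus 17.4-fold above MNs, with a 95% counting interval of 8.13 to 44.0, and no fold is given against the libraries listed at 0. The level in PRP-MNs was well over the value of 3 fragments there, 0.0613 FPKM, whereas the level in MNs was nearer to its own, 0.0567 FPKM. In bulk skin, fewer cells of a type and less RNA per cell cannot be told apart.

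Shh (ENSMUSG00000002633) lies on chromosome 5 from 28456815 to 28467256 on the minus strand of GRCm38. Its exons share 446 of 2847 bases with exons of the antisense gene 9530036O11Rik and 361 with those of the noncoding gene Gm26894, both on the opposite strand. The sources do not say whether the counting used strand, so fragments of those transcripts cannot be told apart from Shh over these bases. Neither gene was analysed here. Genes beside Shh on the chromosome did not share its pattern. Rbm33, the nearest listed gene on one side, was at 7.47 FPKM (PRP-MNs), 7.79 (PRP), 6.84 (MNs) and 8.90 (NC). On the other side Rnf32 lay between 0.128 and 0.297 FPKM, lowest in PRP-MNs. Lmbr1, whose intron holds the limb enhancer of Shh, was also lowest in PRP-MNs (3.28 FPKM) and highest in NC (5.01 FPKM).

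Ihh, which encodes Indian hedgehog, the ligand of growing cartilage that is also made in sebaceous glands, was near the limit of detection in every library. It was at 0.129 FPKM (PRP-MNs), 0.0511 (PRP), 0.0655 (MNs) and 0.0457 (NC), about 5, 2, 3 and 2 fragments. PRP and NC were under the value of 3 fragments, and MNs was at it. These counts do not separate the libraries. Ihh (ENSMUSG00000006538) lies on chromosome 1 from 74945315 to 74951672, minus strand.

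**Figure D1:**
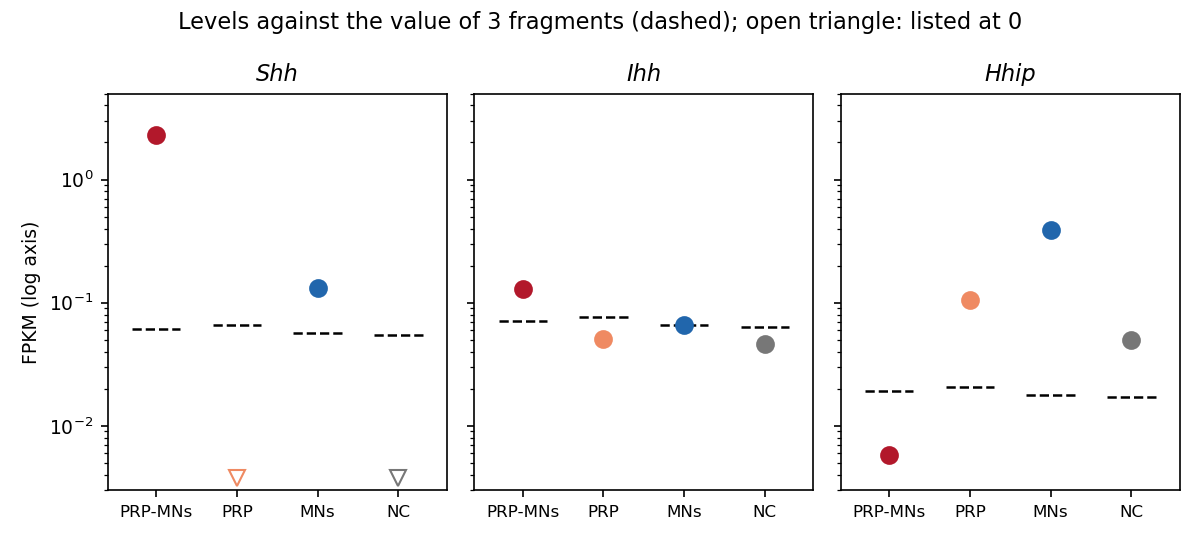
Levels of Shh, Ihh and Hhip in FPKM on a log axis, 1 point per library, with a dashed line at the value of 3 fragments for that transcript and library. Shh lies far above the line in PRP-MNs (2.28 FPKM) and is listed at 0 in PRP and NC (open triangles), Ihh stays close to the line, and Hhip falls under it in PRP-MNs (0.00577 FPKM) only.

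The output genes Gli1, Ptch1 and Hhip were highest in MNs and not in PRP-MNs, where Shh was highest. Gli1, the transcription factor that is both an effector and a target of hedgehog signals, was at 0.873 FPKM (PRP-MNs), 0.823 (PRP), 2.07 (MNs) and 0.702 (NC). MNs stood above the other 3 libraries, which lay close together. Its level in MNs was 2.94-fold that in NC (95% counting interval 2.15 to 4.08, taking the longest coding transcript) and 2.37-fold that in PRP-MNs (1.75 to 3.23). Between PRP-MNs, where Shh was highest, and NC, where it was listed at 0, the Gli1 ratio was 1.24 with an interval of 0.850 to 1.83, which includes no difference. Gli1 (ENSMUSG00000025407) lies on chromosome 10 from 127329882 to 127341974, minus strand. Its exons share 62 bases with the RhoGAP gene Arhgap9 on the opposite strand, which was at 17.9 FPKM (PRP-MNs), 8.30 (PRP), 10.0 (MNs) and 3.09 (NC), and 265 bases with the antisense gene Gm47200, which was not analysed here.

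Ptch1, the receptor gene that the pathway induces and that limits it in turn, was at 3.51 FPKM (PRP-MNs), 2.76 (PRP), 4.60 (MNs) and 2.58 (NC). MNs was again highest, at 1.78 times NC (counting interval 1.57 to 2.03) and 1.31 times PRP-MNs (1.16 to 1.48). PRP-MNs was 1.36 times NC (1.18 to 1.56), while PRP and NC differed by 1.07 times with an interval that includes no difference (0.921 to 1.24). Ptch1 (ENSMUSG00000021466) lies on chromosome 13 from 63508328 to 63573598, minus strand.

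Hhip, a membrane protein that binds and sequesters hedgehog ligands, was at 0.00577 FPKM (PRP-MNs), 0.106 (PRP), 0.387 (MNs) and 0.0501 (NC). This corresponds to about 1, 15, 65 and 9 fragments on a transcript of 9074 bases. The library with the most Shh thus had the fewest Hhip fragments, under the value of 3 fragments (0.0192 FPKM). MNs was 7.72-fold above NC (counting interval 3.71 to 17.1) and 3.66-fold above PRP (2.09 to 6.99). Hhip (ENSMUSG00000064325) lies on chromosome 8 from 79965851 to 80058006, minus strand, and shares 175 exon bases with the noncoding gene Gm27820 on the opposite strand.

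Gli2 and Gli3 encode the factors that first receive the signal, Gli2 mainly as an activator and Gli3 mainly as a repressor. Gli2 was at 0.596 FPKM (PRP-MNs), 0.488 (PRP), 1.86 (MNs) and 0.192 (NC). Among the members detected in every library it showed the widest spread: MNs was 9.67-fold above NC (counting interval 6.28 to 15.0) and 3.12-fold above PRP-MNs (2.37 to 4.14). NC also stood below the other libraries, with PRP 2.54-fold above it (1.54 to 4.25). Gli3 was at 1.53 FPKM (PRP-MNs), 1.17 (PRP), 2.34 (MNs) and 1.02 (NC). MNs was 2.30-fold above NC (1.90 to 2.79), and PRP and NC differed by 1.15 times (0.917 to 1.45). On GRCm38 Gli2 (ENSMUSG00000048402) lies on chromosome 1 from 118834132 to 119053619, minus strand, and Gli3 (ENSMUSG00000021318) on chromosome 13 from 15463235 to 15730026, plus strand, where 188 of its exon bases are shared with the noncoding gene Gm6556 on the opposite strand.

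Smo and Sufu act between receptor and Gli factors. Smo, the transducer that Patched restrains, was at 10.5 FPKM (PRP-MNs), 13.9 (PRP), 18.8 (MNs) and 17.7 (NC). It was lowest where Shh was highest, at 0.591 times the NC level in PRP-MNs (counting interval 0.537 to 0.649), and MNs and NC did not differ beyond counting error (1.06 times, 0.982 to 1.15). Sufu, which holds Gli factors in the cytoplasm, was at 5.40 FPKM (PRP-MNs), 4.39 (PRP), 5.85 (MNs) and 3.96 (NC). MNs and PRP-MNs did not differ beyond counting error for Sufu (1.08 times, 0.949 to 1.24). Smo (ENSMUSG00000001761) lies on chromosome 6 from 29735503 to 29761365 and Sufu (ENSMUSG00000025231) on chromosome 19 from 46396896 to 46488804, both on the plus strand.

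**Figure D2:**
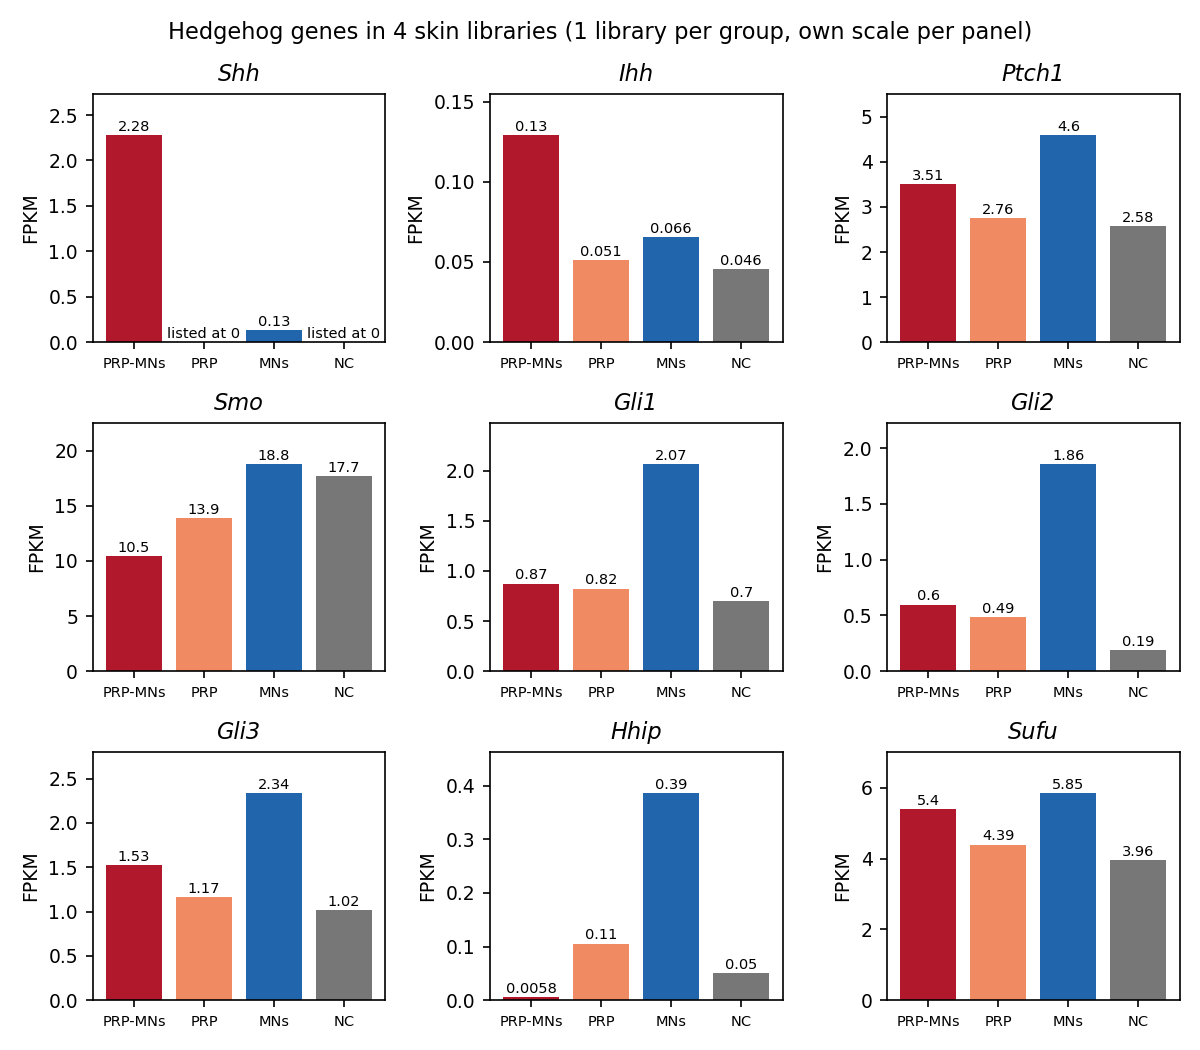
FPKM of each hedgehog gene in the 4 libraries, as bars from 0 with a separate scale in each panel and no error bars, since each group has 1 library. Shh and Ihh are highest in PRP-MNs, and the other 7 genes are highest in MNs, among them Gli1 at 2.07 FPKM and Gli2 at 1.86 FPKM.

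In order of level, MNs was the highest library for 7 of the 9 members, against 28.4% of the 20831 genes above 0 in a library, and PRP-MNs for Shh and Ihh, against 33.1%. Among the 7 members that reached 1 FPKM somewhere, 6 were highest in MNs, against 28.6% of 14475 genes, and Shh was highest in PRP-MNs, as 33.9% were. Gli1 and Gli2 reached 1 FPKM only in MNs, and Shh only in PRP-MNs, so this filter fixed their first place. Ptch1, Gli1, Gli2, Gli3 and Sufu had the same order, MNs above PRP-MNs above PRP above NC. That order held for 10.7% of the 14475 genes, and the filter had fixed MNs as first for Gli1 and Gli2. In none of these members did every step of the order exceed counting error. The interval included no difference for Ptch1, Gli1, Gli3 and Sufu in PRP against NC. It also did for Gli1 and Gli2 in PRP-MNs against PRP, and for Sufu in MNs against PRP-MNs.

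Differences were also put on the scale of all genes, as log2 of the ratio of FPKM + 1, for genes with 1 FPKM or more in either library. That scale understates differences of low genes, and most members are low. Between PRP-MNs and NC, 5 of 9 members passed the filter and 1, Shh, was at least 2-fold higher (1.71), where 29.1% of 13981 genes were 2-fold apart, 17.6% higher and 11.5% lower. With a pseudocount of 0.1 FPKM it was again Shh alone (4.57), where 36.2% were. Since Shh was chosen for this contrast and passed only through PRP-MNs, nothing is read from that count. Smo differed by −0.71, Ptch1 by 0.33, Gli3 by 0.33 and Sufu by 0.37, beside a median of 0.14 over all genes. These 4 members therefore lay within 2-fold of NC. Gli2, under 1 FPKM in both libraries, was left out by the filter, and its FPKM in PRP-MNs was 3.11 times that in NC (counting interval 1.90 to 5.04).

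Between MNs and NC, 6 members passed the filter and 1, Gli2, was at least 2-fold higher (1.26), where 22.8% of 13925 genes were 2-fold apart, 15.7% higher and 7.12% lower. Gli1 differed by 0.85, Gli3 by 0.73, Ptch1 by 0.64, Sufu by 0.47 and Smo by 0.08, which became −0.08 when the median of all genes was set to 0. The median of the 6 was 0.69, beside 0.16 over all genes. Gli1 and Gli2 passed the filter only through MNs, so this median favours a higher value. With a pseudocount of 0.1 FPKM, 3 members were at least 2-fold higher, Gli2 (2.75), Gli1 (1.43) and Gli3 (1.12), and 30.1% of all genes differed by 2-fold in either direction.

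PRP differed least from NC of the 3 libraries, by the share of all genes 2-fold apart. Of the 4 members that passed the filter, none was 2-fold apart, where 9.24% of 13533 genes were (7.78% higher and 1.46% lower, or 15.3% with a pseudocount of 0.1 FPKM), and the values ran from −0.33 for Smo to 0.12 for Sufu. In PRP-MNs against PRP only Shh of 5 members was at least 2-fold higher (1.71), where 17.0% of 13861 genes were 2-fold apart (9.54% higher and 7.50% lower, or 23.8% with a pseudocount of 0.1 FPKM), and Smo differed by −0.38. Here too Shh passed only through PRP-MNs, for which it was chosen, so nothing is read from its count. The comparisons share libraries, so their values are given side by side and not counted as separate evidence.

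Between PRP-MNs and MNs, both of which had microneedles, Shh was the one member of 7 that was at least 2-fold higher (1.54), where 14.5% of 13933 genes were 2-fold apart, 7.16% higher and 7.39% lower. Shh was chosen for its high level in PRP-MNs and passed only through that library, so nothing is read from its count. All other 6 members that passed were lower in PRP-MNs: Gli2 by −0.84, Smo by −0.79, Gli1 by −0.71, Gli3 by −0.40, Ptch1 by −0.31 and Sufu by −0.10. Gli1 and Gli2 passed the filter only through MNs, which fixed their direction here and in PRP against MNs. None of these 6 reached 2-fold on this scale, so their share was not above that of all genes. With a pseudocount of 0.1 FPKM, Gli2 (−1.49) and Gli1 (−1.15) did, and 19.7% of all genes were 2-fold apart in either direction. Between PRP and MNs no member of 6 was 2-fold apart, where 10.6% of 13838 genes were (4.62% higher and 5.99% lower). Gli2 was nearest, at −0.94 as deposited, −1.03 after every library was scaled to the same sum and −1.73 with a pseudocount of 0.1 FPKM, where Gli1 also passed (−1.23) and 16.0% of all genes did.

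**Figure D3:**
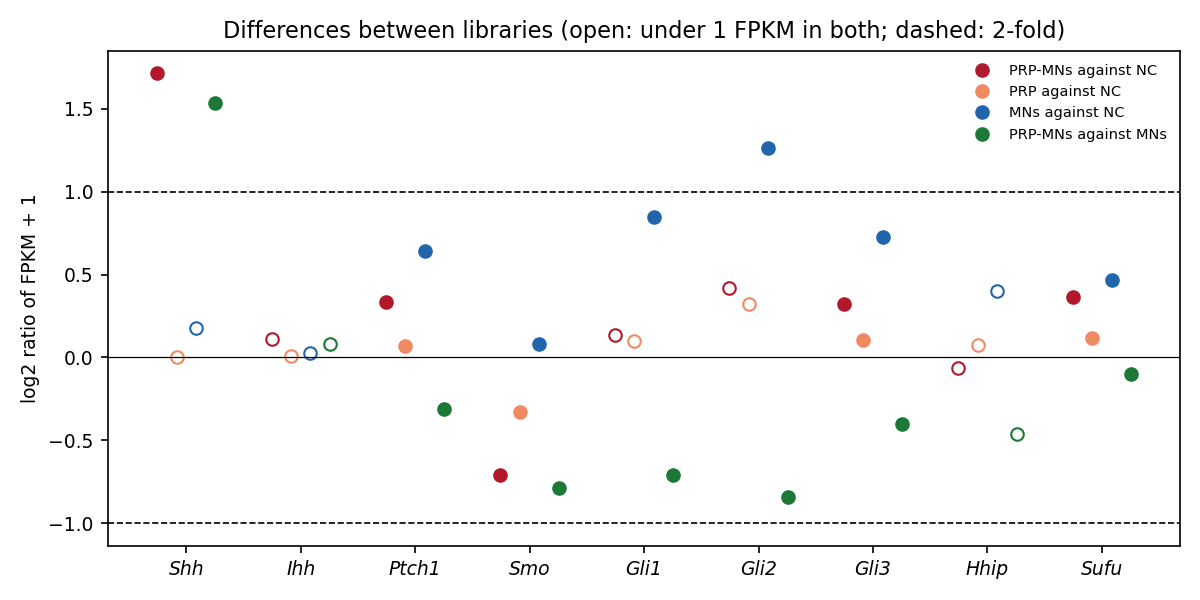
log2 ratio of FPKM + 1 for each hedgehog gene in 4 comparisons of libraries, with open points for genes under 1 FPKM in both libraries and dashed lines at 2-fold. Shh is above the upper line in both comparisons of PRP-MNs (1.71 and 1.54), and Gli2 is above it in MNs against NC (1.26).

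Other genes that make and release hedgehog ligands were low, and 4 of 7 reached 1 FPKM in a library. Dhh, which encodes Desert hedgehog, the ligand of Schwann cells, was at 2.68 FPKM (PRP-MNs), 1.02 (PRP), 1.85 (MNs) and 0.167 (NC). Its FPKM, a per-length level, was above that of Shh in all 4 libraries, PRP-MNs included (2.68 against 2.28). The Schwann cell transcription factor gene Sox10 had the same order and was at 2.62 FPKM (PRP-MNs), 1.05 (PRP), 2.51 (MNs) and 0.207 (NC). Over the whole Schwann cell list of 8 genes the summed level was 215, 218, 281 and 105 FPKM in the same order, and none was listed at 0. The part of these cells in the Dhh values was not tested. Hhat, the enzyme that attaches palmitate to hedgehog ligands, was at 1.21 FPKM in PRP-MNs against 0.334 in NC. Scube2, a secreted protein that helps release the ligand from cells, was at 0.306 FPKM in PRP-MNs against 2.41 in MNs. Disp1, which exports the ligand, lay between 1.75 FPKM in PRP and 3.09 FPKM in MNs.

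Co-receptors and other binding proteins of the cell surface shared the MNs pattern of the Gli genes. Of 5 such genes 4 reached 1 FPKM and all 4 were highest in MNs, where 28.6% of all genes were, and the other, Lrp2, was listed at 0 in every library. Gas1, a co-receptor that helps cells sense low ligand, was at 8.16 FPKM (PRP-MNs), 19.6 (PRP), 47.2 (MNs) and 18.4 (NC). Boc, a related co-receptor, was at 2.53, 4.68, 12.7 and 3.48 FPKM in the same order. Both were lowest in PRP-MNs and highest in MNs. Cdon, which resembles Boc, was at 4.81, 5.45, 7.93 and 4.30 FPKM, a narrower range. Gpc3, a glypican that competes for hedgehog ligands, was at 11.0, 15.4, 24.6 and 8.26 FPKM. Against NC, 3 of 4 tested members of this list were at least 2-fold higher in MNs (median 1.39), where 15.7% of all genes were. In PRP-MNs none of 4 was higher, where 17.6% of all genes were, and Gas1 was at least 2-fold lower (−1.08), where 11.5% were.

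The 23 genes that act between Smo and the Gli factors and the 15 genes of the primary cilium, the organelle in which the signal is passed on, showed no such common pattern. Of 22 transducer genes that reached 1 FPKM, 9 were highest in MNs, 8 in PRP-MNs and 5 in NC. In MNs against NC 1 of 22 was at least 2-fold higher and 1 lower (median 0.23), and in PRP-MNs against NC 3 of 21 were higher and 1 lower (median 0.21). These counts were under the shares of all genes, 15.7% higher and 7.12% lower in MNs, and 17.6% higher and 11.5% lower in PRP-MNs. Arrb2, a beta-arrestin that is abundant in leukocytes, was at 41.9 FPKM in PRP-MNs against 6.13 in NC. Kctd11, an inhibitor of the pathway in the cerebellum, was at 13.3 FPKM in PRP-MNs against 49.1 in NC. Prkar1a, the regulatory subunit of protein kinase A, was at 113 FPKM in PRP-MNs against 53.9 in NC. Of 13 cilium genes tested, none was 2-fold apart in MNs against NC, and 1, the kinesin gene Kif3b (10.9 against 4.62 FPKM), was higher in PRP-MNs.

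Of 10 further genes reported as Gli targets, 5 reached 1 FPKM, and Foxe1 was listed at 0 in every library. They did not share a direction. The cyclin gene Ccnd1, which many growth signals induce, was at 47.6 FPKM (PRP-MNs), 17.6 (PRP), 26.6 (MNs) and 18.0 (NC). Ccnd2 was highest in MNs (24.4 FPKM) and at 16.2 FPKM in PRP-MNs. The survival gene Bcl2 was likewise highest in MNs, at 2.43 FPKM, and at 1.74 FPKM in PRP-MNs. The Notch ligand gene Jag2 was lowest in PRP-MNs (10.2 FPKM) and highest in NC (25.5 FPKM). Over all 60 genes outside the 9 members, 7 of 48 tested were at least 2-fold higher in MNs than in NC and 1 lower, and 6 of 46 were higher in PRP-MNs and 3 lower. Over all genes the shares were 15.7% and 7.12% in MNs and 17.6% and 11.5% in PRP-MNs, so the numbers of higher and lower genes were not above the background.

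**Figure D4:**
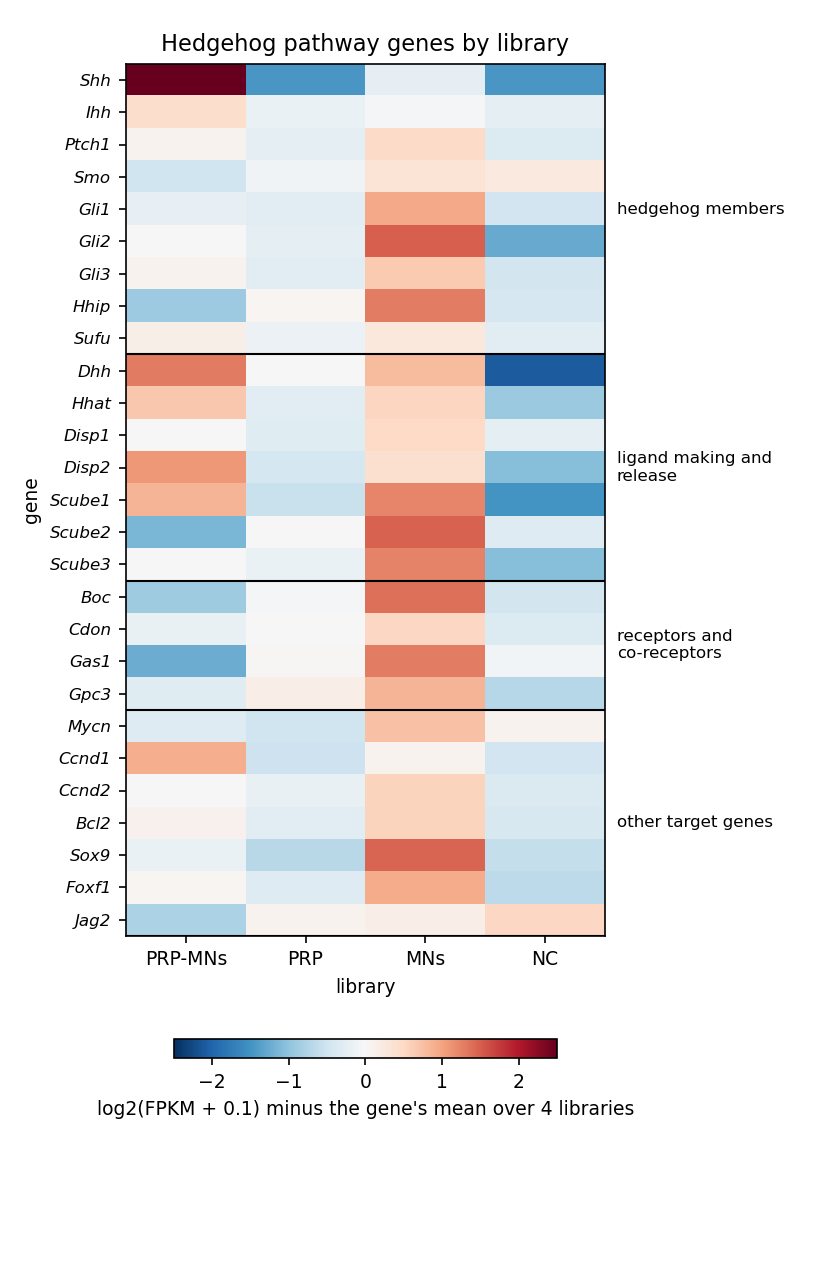
Hedgehog members, ligand release genes, receptors and other targets that reached 0.1 FPKM, as log2(FPKM + 0.1) minus the mean of the gene over the 4 libraries, with the colour scale limited so that Shh in PRP-MNs lies beyond it. Shh is high in PRP-MNs alone, while the co-receptor genes are highest in MNs, with Gas1 at 47.2 FPKM there.

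Markers of the hair matrix, the main source of Shh in a growing follicle, were lowest in PRP-MNs by their sum. Of 14 hair matrix genes, 10 were tested in PRP-MNs against NC, and 6 were at least 2-fold lower and none higher (median −1.19), where 11.5% of all genes were lower and 17.6% higher. Msx2, Wnt10b and Edaradd passed the filter only through NC, so they could only be lower. Wnt10b and Edaradd are among the 6, so the count and the median favour lower values. The follicle transcription factor gene Sp6 was at 3.22 FPKM (PRP-MNs), 14.5 (PRP), 4.29 (MNs) and 25.7 (NC). Wnt10a, a ligand gene of the follicle epithelium, was at 2.98, 14.2, 8.47 and 18.8 FPKM in the same order, again lowest where Shh was highest. The summed level of the 14 genes was 18.1 FPKM (PRP-MNs), 50.6 (PRP), 33.8 (MNs) and 78.1 (NC). Edar, the ectodysplasin receptor gene, was listed at 0 in PRP-MNs but was low in every library, at 0.0915 FPKM (PRP), 0.0518 (MNs) and 0.0845 (NC). The 11 epidermal genes had the same order of sums, at 3808 FPKM (PRP-MNs), 12343.5 (PRP), 7463 (MNs) and 17488 (NC). From NC to PRP-MNs, 8 of these 11 fell by 2-fold or more and none rose as far (median −1.77). The low sum in PRP-MNs was thus not particular to the hair matrix list. Hair shaft keratins summed to 0.868 FPKM in PRP-MNs against 6.51 in NC over 9 genes, and most of the NC sum was Krt84 (5.47 FPKM). The other 8 summed to 0.425 FPKM (PRP-MNs), 0.169 (PRP), 2.11 (MNs) and 1.05 (NC). Of the 9, 6 were listed at 0 in PRP-MNs, 7 in PRP, none in MNs and 1 in NC. Of all 25571 genes, 6936 (PRP-MNs), 7509 (PRP), 6944 (MNs) and 7164 (NC) were listed at 0. The keratins listed at 0 were all among the 8 other than Krt84, which were low in every library, so little is read from these zeros. Sensory neuron genes, another known site of Shh, summed over 6 genes to 0.298 FPKM (PRP-MNs), 0 (PRP), 0.0208 (MNs) and 0.0523 (NC). Their sum was thus highest in PRP-MNs, as Shh was, but none of the 6 reached 1 FPKM in any library. Of these 6 genes 2 were listed at 0 in PRP-MNs, against all 6 (PRP), 5 (MNs) and 4 (NC), beside the numbers over all genes given above. Of 5 Merkel cell genes 1 reached 1 FPKM, Isl1, at 5.37 FPKM in PRP-MNs against 1.35 in NC. The 5 genes summed to 6.97 FPKM (PRP-MNs), 3.70 (PRP), 3.42 (MNs) and 1.79 (NC), also highest in PRP-MNs. Without Isl1 the other 4 summed to 1.60 FPKM (PRP-MNs), 0.922 (PRP), 1.79 (MNs) and 0.439 (NC). That sum was highest in MNs, so the first place of PRP-MNs rested on Isl1. The part of these cell types in the Shh values was not tested.

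Markers of several cell types that respond to hedgehog signals were high in MNs, as were Ptch1 and the Gli genes. Over all genes at 1 FPKM or more 28.6% were highest in MNs and 33.9% in PRP-MNs. All 10 fibroblast genes were highest in MNs, with a summed level of 7550 FPKM, against 1117 in PRP-MNs, 2038 in PRP and 1021 in NC. The platelet-derived growth factor receptor gene Pdgfra, a marker of dermal fibroblasts, was at 45.6 FPKM (PRP-MNs), 15.6 (PRP), 59.8 (MNs) and 4.75 (NC). All 8 genes of follicle stem cells and germ were also highest in MNs (summed level 478 FPKM, against 87.5 in PRP-MNs and 136 in NC), among them Krt15 at 313 FPKM in MNs and 12.6 FPKM in PRP-MNs. Without Krt15 the list summed to 74.9 FPKM in PRP-MNs and 57.3 in NC, so the order of these 2 libraries rested on that gene. All 7 sebaceous gland genes were highest in MNs, summing to 1793 FPKM there, to 341 in PRP-MNs, 490 in PRP and 403 in NC. Most of that was the desaturase gene Scd1 outside MNs, and the other 6 genes summed to 5.66 FPKM (PRP-MNs), 69.7 (PRP), 672 (MNs) and 69.2 (NC). In PRP-MNs against NC 5 of 6 tested sebaceous genes were at least 2-fold lower (median −2.38), where 11.5% of all genes were. Among the 5, Scd3 and Dgat2l6 passed the filter only through NC, so they could only be lower. No gene of these 3 lists was listed at 0 in any library. The first place of MNs was not particular to these lists. All 5 adipocyte genes and 4 of 5 smooth muscle genes were also highest in MNs, and the other smooth muscle gene, Des, in PRP-MNs. Dermal papilla genes did not point to 1 library: of 10 genes 8 reached 1 FPKM, and 4 of these were highest in PRP-MNs, among them the versican gene Vcan (45.3 against 1.33 FPKM in NC), 2 in MNs and 2 in NC. Leukocyte genes were highest in PRP-MNs, where the 8 genes summed to 1402 FPKM against 104 in NC, and epidermal genes were lowest there, at 3808 against 17488 FPKM. The part of these cell types in the hedgehog values was not tested.

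**Figure D5:**
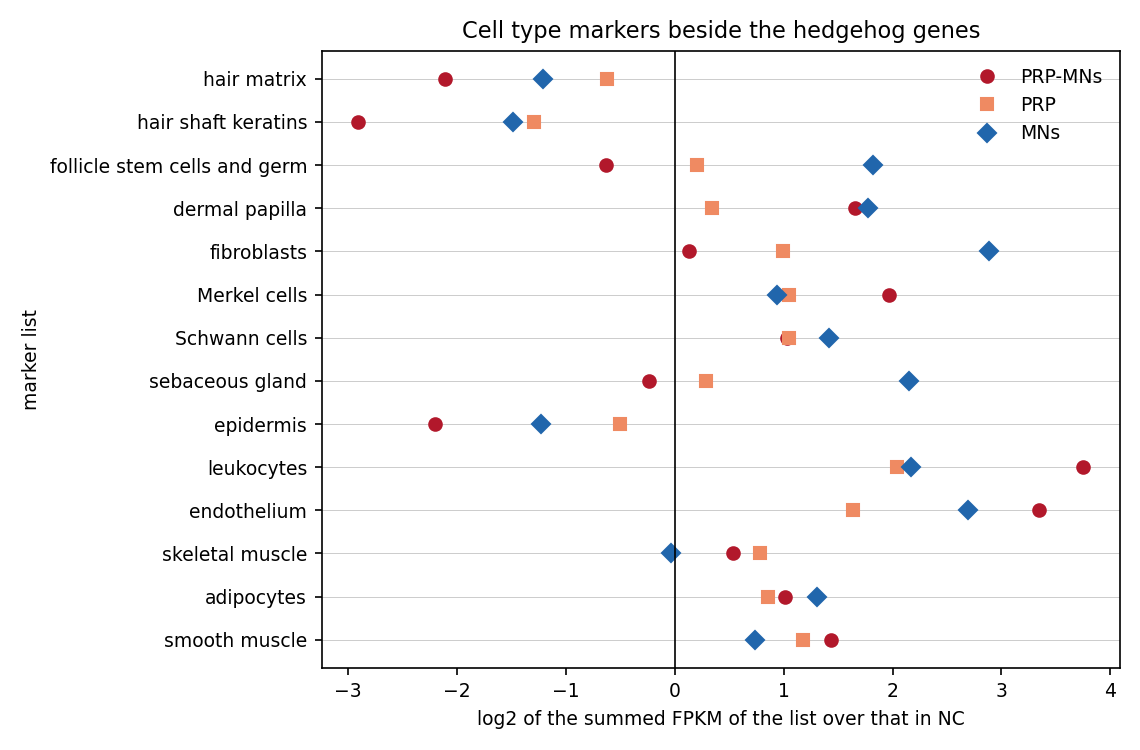
log2 of the summed FPKM of each marker list in PRP-MNs, PRP and MNs over that in NC. For the fibroblast, follicle stem cell and sebaceous lists the MNs point lies right of the other 2 (summed fibroblast level 7550 against 1021 FPKM in NC), as it also does for the dermal papilla, Schwann cell and adipocyte lists. The hair matrix list lies left of 0 in all 3 libraries.

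The genes nearest in profile were found by Euclidean distance of log2(FPKM + 0.1) over the 4 libraries among 13064 named genes. For Shh they were Dynap (distance 0.51), the neuropeptide gene Gal (0.71), Dppa3 (0.90), the claudin gene Cldn2 (0.96) and the cytokine gene Il23a (1.03). All 5 were low, between 1.27 FPKM for Il23a and 2.41 FPKM for Dppa3 in PRP-MNs. For Gli1 they were Gpr27 (0.35), S100b (0.36), Serpinb1c (0.37), Nynrin (0.38) and Armh4 (0.39), each highest in MNs, from 1.69 FPKM for S100b to 2.43 FPKM for Nynrin. With 4 libraries and low values such likeness is a description of levels only.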

How the data were processed

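The authors deposited 1 table of FPKM values, with 1 column for each of the 4 libraries. An NEBNext Ultra kit and 1 μg of input RNA were used, per the labels' protocols. Per the submitters' processing notes the genome build was GRCm38. For the aligner, quantification tool, annotation and strand setting, the answer is: not given in the sources used here. Coordinates, transcript lengths and overlaps came from GENCODE release M21 on GRCm38. Depth was read from the steps of 4521 genes with 1 transcript, since 27.7% to 31.2% of low values came within 0.02 of whole fragments at the best step (median of other steps 2.69% to 3.15%). Most genes gave no whole fragments, so no count test was run, and fragment numbers of genes with several transcripts are approximate. Ratios carry exact binomial intervals (95%, Clopper-Pearson) on rounded fragments. Differences used FPKM + 1 and a filter of 1 FPKM, over 6 comparisons, and were tested on simulated data. The genes changed in that simulation had a mean of 5 FPKM or more. Most members lay under that level, so the simulation did not cover them. All 9 members were named, with up to 4 genes of each of 20 further lists by their difference between PRP-MNs and NC, and the 5 nearest profiles of Shh and Gli1. Edar, Msx2, Wnt10b, Lrp2, Foxe1, Krt14, Scd1, Arhgap9 and the chromosomal neighbours were named outside that rule, after their values were seen. The members and lists were chosen with earlier results of these data known. The list gene Krt85 was not analysed here, and 1 gene of the receptor list is not reported here and is in no count of the lists. Python 3.11.15, pandas 2.3.3 and SciPy 1.17.1 were used.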

Additional observations from a re-analysis of the deposited data

Results flagged for a closer look

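Several members differed in opposite directions with and without the other treatment, on the log2 scale of FPKM + 1. With 1 library per cell of the layout these differences were not tested. For 6 members PRP was higher than NC and PRP-MNs was lower than MNs. Ihh, near the limit of detection, was higher in both (0.0073 and 0.0838), Smo was lower in both, and neither PRP nor NC had any Shh above 0. The pairs of values were 0.0704 and −0.31 for Ptch1, 0.10 and −0.71 for Gli1, 0.32 and −0.84 for Gli2, 0.10 and −0.40 for Gli3, 0.0745 and −0.46 for Hhip, and 0.12 and −0.10 for Sufu. The PRP against NC values of Ptch1, Gli1, Gli3, Hhip and Sufu lay within counting error. Among the 7 members that reached 1 FPKM 5 had this pattern, where 24.9% of 14475 genes did. Gli1 and Gli2 reached 1 FPKM only in MNs, so this filter fixed their lower value in PRP-MNs. For Sufu the second value was within counting error as well. Nothing is read from this count. MNs against NC and PRP-MNs against PRP had opposite signs for Smo (0.0808 and −0.38) and for Hhip (0.40 and −0.14), and the first value of Smo was within counting error.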

How the results depend on the processing

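The alternatives were a pseudocount of 0.1 FPKM, no filter, a filter at 5 FPKM, centring on the median of all genes and scaling every library to the same sum. The recalculations covered the number of members at least 2-fold apart, the Shh level and the count of members highest in MNs. Of 35, 27 were labelled the same, which allowed small changes of the Shh level and of the MNs count. No member that was 2-fold apart changed direction, but none of these settings could reverse a difference that large, so nothing is read from this. With a pseudocount of 0.1 FPKM the number at least 2-fold apart was 3 in MNs against NC, 3 in PRP-MNs against MNs and 2 in PRP against MNs, in place of 1, 1 and 0. With a filter at 5 FPKM it was 0 in PRP-MNs against NC, MNs against NC, PRP-MNs against PRP and PRP-MNs against MNs, since Smo and Sufu alone remained. Scaled to the same sum it was 1 in PRP against MNs (Gli2). That scaling moved the median of all genes by 0.18 in MNs against NC and 0.14 in PRP-MNs against NC. Shh in PRP-MNs was 2.28 FPKM as deposited, 2.38 FPKM scaled to the same sum and 2.36 FPKM scaled without mitochondrially encoded genes. The count of 6 members highest in MNs was the same under both scalings, which were added after seeing the data, and was 7 of 9 without a filter. No paired analysis was possible because each group has 1 library. Depth limits Ihh in all libraries and Hhip in PRP-MNs.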

Other observations

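Shh was 1 of 30 genes that reached 1 FPKM in PRP-MNs and were listed at 0 in both PRP and NC, which is 0.227% of the 13210 genes at that level in PRP-MNs. Since Shh was chosen for its high level in PRP-MNs, nothing is read from this share. Of the 30, 10 had Ensembl identifiers and 20 were models without one, and 8 stood above Shh. The 2 genes named next were chosen after their values were seen. Prl2c3, a member of the prolactin family, had the highest level among the 10, with 9.78 FPKM (PRP-MNs) and 0.326 FPKM (MNs). Ly6g, the neutrophil surface marker, had 1.19 FPKM (PRP-MNs) and 0.0573 FPKM (MNs). Both belong to families of similar genes, which makes their values uncertain. Of the 9 others with Ensembl identifiers, 8 were above 0 in MNs, as Shh was.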
